A study of Mus musculus with 4 samples.

Results

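Astrocyte nuclei of the basolateral amygdala (BLA) were chosen by marker gene UMIs in single-nucleus RNA sequencing. Barcodes with at least 500 genes and under 5% mitochondrial UMIs (unique molecular identifiers, each standing for 1 captured RNA molecule) were kept. A kept nucleus was a member when it held at least 3 UMIs, and at least 10 per 10000 of its UMIs, summed over Slc1a3, Gja1, Slco1c1, Slc39a12 and Etnppl. It also had to hold at most 1 UMI in sum of the neuronal genes Slc17a7, Gad1 and Gad2, at most 1 of the oligodendrocyte genes Mobp and Mog, and at most 1 of Pdgfra (oligodendrocyte precursors) and Csf1r (microglia). By this rule 3185 of 26850 kept nuclei, among 27313 barcodes, were members. They numbered 362 and 1172 in DISC1-N replicates 1 and 2, and 527 and 1124 in WT replicates 1 and 2.

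Both groups were C57BL/6J mice, labelled DISC1-N and WT (wild type), with 2 libraries each. All animals received tamoxifen intraperitoneally, and brains were taken 6 h later. Tissue of both hemispheres from 5 mice was combined for each group, and whether the replicates of a genotype come from different animals is not given in the sources used here. The p-values of the gene fits therefore rest on a spread between libraries, estimated over genes together, which may be technical. The labels name DISC1-N only as a genotype, and do not give the allele, the promoter or the cells that carry it, or the animals' age.

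Astrocytes take up glutamate and GABA released at synapses, convert glutamate to glutamine and return it to neurons. They buffer potassium and move water through channels on their fine processes, are joined to each other by gap junctions, and release lipid and protein factors that act on synapses. Their end-feet wrap brain capillaries, so endothelial cells and pericytes lie next to them in tissue. In the amygdala they respond to neuronal activity with calcium signals and have been linked to fear and anxiety behaviour in rodents.

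The 4 libraries held 37840301 to 48439711 UMIs. Members were shallow, with a median of 1979 and 1960 UMIs per nucleus in DISC1-N replicates 1 and 2 and 1975 and 1875 in WT replicates 1 and 2, while other kept nuclei had medians of 3849 to 5718. Summed over members, a library gave 815238 to 2613324 UMIs, and levels below are counts per 1000000 of these UMIs (CPM). Libraries of the same replicate number lay closest: over members' gene sums the chi-square per degree of freedom was 1.73 between the replicate 1 libraries and 2.16 between the replicate 2 libraries, against 7.04 to 10.6 for the other pairs. The file headers name a different Cell Ranger version for each number. The genotypes were therefore compared within replicate number. Library pairs shared 5 to 21 barcode sequences, and 1 barcode was a member in 2 libraries.

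The members carried the transcripts of astrocytes far beyond the genes of the rule. All 24 other astrocyte markers were higher, per UMI, in members than in other kept nuclei of the same library, with ratios of 7.53 to 85.6. Among them were Slc1a2, the main glutamate transporter of forebrain astrocytes, with ratios of 14.7 to 33.4, the water channel gene Aqp4, with ratios of 18.3 to 38.4, and the connexin gene Gjb6, with ratios of 28.3 to 85.6. The genes used by the rule had ratios of 19.2 to 102, which the choice of members fixes. No test was made of members against the rest, since membership rests on these cells' own transcripts.

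**Figure D1:**
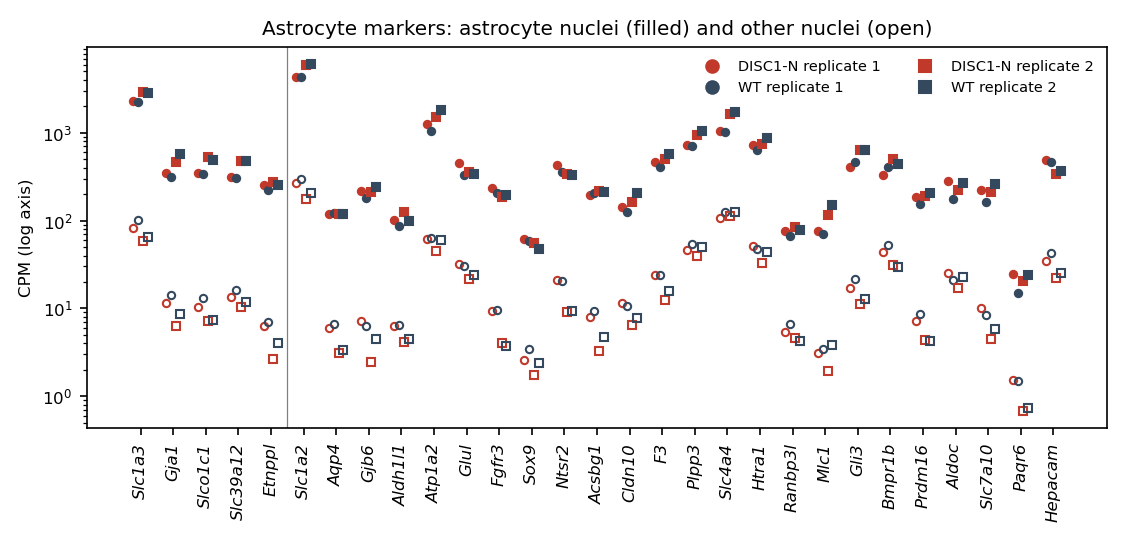
CPM (log axis) of the 5 rule markers (left of the line) and the 24 other astrocyte markers, summed over astrocyte nuclei (filled) and over other kept nuclei (open) of each library. In every library each of the 24 other markers lies at least 7.53 times higher in astrocyte nuclei.

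Genes outside the marker lists with the highest lowest-library ratio over other nuclei described further astrocyte functions. Rpe65, a retinoid isomerohydrolase gene best known from the retina, was 28.6 to 63.3 times higher in members. Heph, which encodes a copper-dependent ferroxidase, was 27.6 to 84.3 times higher. Ppp1r3c, a subunit that targets protein phosphatase to glycogen, had ratios of 25 to 49.6, and Dio2, the deiodinase that makes active thyroid hormone, 23.6 to 51.7. Agt (angiotensinogen) had ratios of 23.3 to 52.7, Cbs (cystathionine beta-synthase) 23.1 to 53.1 and Grin2c (an NMDA receptor subunit) 22.6 to 66.2. These values describe the chosen nuclei and are not findings about them.

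Slc1a3, the glutamate aspartate transporter, supplied most of the UMIs that let a nucleus in. It made up 64.7 and 62.8% of the summed marker UMIs in DISC1-N replicates 1 and 2, and 65.6 and 61.3% in WT replicates 1 and 2, and 97.8 to 98.7% of members held it. Gja1 (connexin 43), Slco1c1 (a thyroid hormone transporter), Slc39a12 (a zinc transporter) and Etnppl (a phospholyase acting on phosphoethanolamine) were each seen in 35.9 to 65.3% of members. A single one of the 5 markers was present in 253 members, and 2932 held 2 or more different ones. At the threshold, 230 members had a sum of exactly 3, and 278 nuclei that met every other condition had a sum of 2. Likewise 39 members lay at 10 to 12 marker UMIs per 10000 and 33 nuclei just outside at 8 to 10. Of 3738 nuclei with enough marker UMIs, 326 failed on the neuronal genes, 138 on the oligodendrocyte genes and 148 on Pdgfra and Csf1r, some on more than 1 of these.

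Slco1c1 is also known from brain endothelium, and some members carried vascular transcripts. A total of 200 members held 2 or more UMIs of 19 endothelial, mural and fibroblast markers: 26 and 85 in DISC1-N replicates 1 and 2, and 42 and 47 in WT replicates 1 and 2. Slco1c1 was the only rule marker in 23 of these 200 and in 0 of the other 2985. The 9 endothelial markers summed to 527 and 223 CPM in DISC1-N members of replicates 1 and 2, against 145 and 157 in WT members. The DISC1-N members were higher in both replicate numbers. Without nuclei holding 2 or more vascular or ependymal UMIs the sums were 16.1 and 13.7 in DISC1-N members and 18.1 and 13.4 in WT members, and the genotypes overlapped; that filter removes nuclei by these genes, so a low sum follows from it.

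Neuronal and oligodendrocyte transcripts were present at lower levels than in the rest of the library, and microglial ones were not. The rule leaves out nuclei with more than 1 UMI of its neuronal or oligodendrocyte genes, so those lower levels follow in part from it. Mobp and Mog are in the oligodendrocyte list, and Csf1r is in the microglia list. The 12 pan-neuronal markers summed to 3960 and 3470 CPM in DISC1-N members of replicates 1 and 2, against 5614 and 3868 in WT members, and to 21946 to 22856 in other nuclei. DISC1-N members were thus lower within each replicate number, though DISC1-N replicate 1 lay above WT replicate 2. The 10 microglia markers summed to 204 and 220 CPM in DISC1-N members and 188 and 184 in WT members, against 151 to 215 in other nuclei, and were higher in members than in other nuclei in 3 of 4 libraries. The 12 oligodendrocyte markers summed to 270 and 125 in DISC1-N members and 305 and 157 in WT members, against 500 to 844 in other nuclei. No list was at 0 for all its genes.

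Astrocyte nuclei made up 8.03% of kept nuclei in DISC1-N replicate 1 (95% Wilson interval 7.27 to 8.86) and 14.3% in DISC1-N replicate 2 (13.6 to 15.1), against 8.72% in WT replicate 1 (8.03 to 9.45) and 13.9% in WT replicate 2 (13.1 to 14.7). The intervals cover counting error only. The DISC1-N share was 0.68 percentage points below WT in replicate 1 and 0.41 above it in replicate 2. Means were 11.2 ± 4.43% in DISC1-N libraries and 11.3 ± 3.65% in WT libraries (SD, n = 2 each), with p = 1 in a two-sided exact permutation test, for which the smallest possible p is 0.333 with 2 libraries a group. The replicate numbers differed by more than the genotypes.

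**Figure D2:**
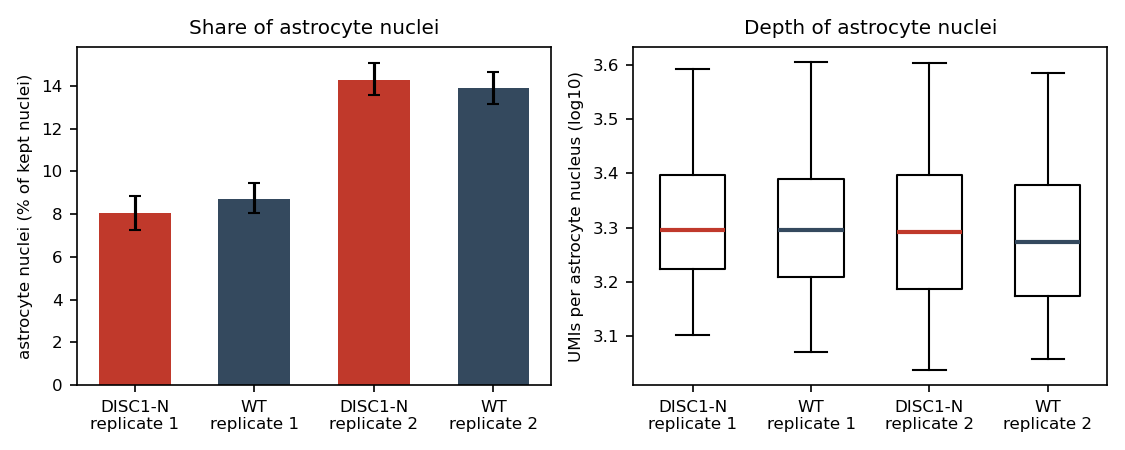
Left, astrocyte nuclei as a percentage of kept nuclei in each library, with 95% Wilson intervals. Right, UMIs per astrocyte nucleus (log10; box, quartiles with the median in colour; whiskers, 5th and 95th percentiles). Shares follow the replicate number, with 8.03 and 8.72% in replicate 1 and 14.3 and 13.9% in replicate 2, and the median depth is alike in the 4 libraries.

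The genes that define astrocyte work did not pass the test between genotypes, and the few genes that did included 4 of the endothelial, mural and fibroblast lists. UMIs were summed over members per library and fitted with edgeR's quasi-likelihood test with the replicate number as a block, and a Benjamini-Hochberg adjusted p under 0.05 over all tested genes was called. Of 12246 genes, 15 were called (0.122%): 11 rose (0.0898%) and 4 fell (0.0327%) in DISC1-N. At an unadjusted p under 0.05 there were 862 genes (7.04%). That fit leaves 1 degree of freedom for the spread among libraries. Its SEs and p-values thus lean on a spread estimated over many genes, and do not measure a single gene's own spread. Without the block edgeR called 0 genes, with 130 at an unadjusted p under 0.05. DESeq2 with the block also called 0, with 29 at that limit, and limma-voom with the block called 23. In simulated counts edgeR with the block recovered 26% of 1.5-fold and 57% of 2-fold changes, and 9 of its 92 calls were false. With no block it recovered 0% of either, and DESeq2 with the block recovered 0% and 13%. The simulated counts took their replicate means from these data and their dispersion from the blocked edgeR fit, which favours that fit. They did not model single outlying nuclei. They therefore do not tell whether 0 or 15 calls is nearer the truth, and a gene not called in the blocked edgeR fit may still differ. Leaving out DISC1-N replicate 1, in a fit with no block, gave 0 calls, and leaving out DISC1-N replicate 2 gave 22, of which 21 were higher. The median log2 fold change of all tested genes was 0.004.

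Among the genes that rose, Cldn5, Ly6c1 and Slco1a4 belonged to the endothelial list and Vtn to the mural and fibroblast list. Itm2a, Ctla2a, Igfbp7 and Abcg2, in neither list, are also known from brain vessels and were put beside them after their values were seen, which makes 8. Vtn (vitronectin, made by pericytes) had 125 and 8.42 CPM in DISC1-N replicates 1 and 2, against 10.1 and 6.23 in WT replicates 1 and 2. DISC1-N replicate 1 stood far above the other 3 libraries, and DISC1-N replicate 2 lay within the WT range. Its log2 fold change was 2.52 ± 0.30 (SE; adjusted p = 4.5e-07, edgeR), and that SE does not show the gap between its replicate numbers. Cldn5, the tight-junction protein of the blood-brain barrier, had 88.3 and 16.4 CPM in DISC1-N replicates, against 13.5 and 4.15 in WT replicates. Both DISC1-N libraries were above both WT libraries, and the log2 fold change was 2.46 ± 0.30 (adjusted p = 6.6e-07, edgeR). Such a separation, here or below, is weak by itself: with 2 libraries a group the smallest possible p of a two-sided exact permutation test is 0.333. Itm2a, a membrane protein gene, had 109 and 22.2 CPM in DISC1-N members and 10.1 and 9.55 in WT members, again with no overlap (log2 fold change 2.33 ± 0.30, adjusted p = 1.9e-06, edgeR). The other 5 were Ctla2a (a cathepsin inhibitor homologue), Ly6c1 (a surface antigen of mouse endothelium), Igfbp7 (a secreted growth factor binding protein), Abcg2 and Slco1a4 (both transporters of the blood-brain barrier), with log2 fold changes of 1.12 to 2.50. Each of the 8 was higher in DISC1-N within both replicate numbers, which the rule for naming genes required of them. Of all tested genes 26.5% were higher in both.

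These UMIs came from few nuclei. In DISC1-N replicate 1 a single nucleus with 11503 UMIs held 424 of the 607 UMIs of the 8 genes (69.9%) and the highest count of each. Its marker UMIs were 16 of Slco1c1 and 1 of Slc1a3, with 0 of Gja1, Slc39a12 and Etnppl. For Vtn it supplied 90 of 102 UMIs, and for Cldn5 50 of 72. In DISC1-N replicate 2 the 8 genes had 567 UMIs in 69 nuclei, and in WT replicates 1 and 2 they had 133 in 32 nuclei and 322 in 57. Members with 2 or more vascular UMIs held 98.0 and 86.4% of Vtn UMIs in DISC1-N replicates 1 and 2 and 91.7 and 80.0% in WT replicates. Vtn is among the genes that define these members, so its shares largely follow from that definition. For Itm2a, outside the lists, they held 98.9 and 96.6% in DISC1-N replicates and 66.7 and 87.0% in WT replicates. Without members holding 2 or more vascular or ependymal UMIs, 2 of 11903 genes were called (0.0168%), both lower in DISC1-N; of these 8 Abcg2 alone still had enough UMIs to be tested, at 0.30 ± 0.43 (adjusted p = 0.901, edgeR). With nuclei above 3 times the median UMI count left out, Itm2a and Slco1a4 were the 2 of the 8 that were still called.

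**Figure D3:**
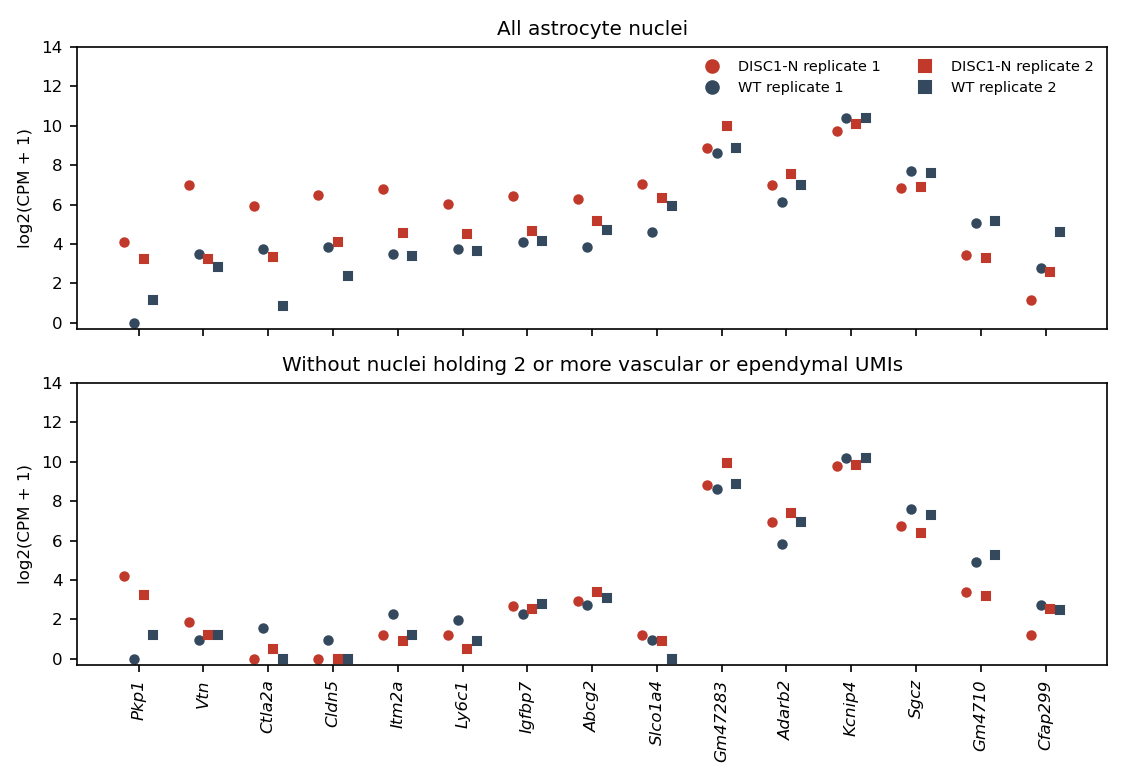
Level of the 15 called genes in each library, as log2(CPM + 1), in all astrocyte nuclei (top) and without nuclei holding 2 or more vascular or ependymal UMIs (bottom), ordered by log2 fold change. The 8 genes from Vtn to Slco1a4 lie at low levels in all 4 libraries in the bottom panel, while Sgcz and Gm4710 keep both DISC1-N libraries below both WT libraries. Vtn, Cldn5, Ly6c1 and Slco1a4 are among the genes that the filter of the bottom panel uses.

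The 2 genes that fell in DISC1-N with and without those nuclei were Gm4710 and Sgcz. Gm4710 is annotated as a long intergenic noncoding RNA (mm10 chr17:75861023-75889039, plus strand) with no role known from the annotation. It had 9.81 and 8.80 CPM in DISC1-N replicates 1 and 2, against 32.0 and 35.3 in WT replicates 1 and 2, and the libraries of a genotype lay close together. In counts this was 8 UMIs in 7 nuclei and 23 UMIs in 21 nuclei of DISC1-N replicates, against 38 UMIs in 31 nuclei and 85 UMIs in 65 nuclei of WT replicates. Its log2 fold change was -1.89 ± 0.29 (adjusted p = 0.00011, edgeR) and -2.02 ± 0.29 without vascular or ependymal nuclei (adjusted p = 0.0199, edgeR). It was close to absent from other kept nuclei, at 0.62 and 0.11 CPM in DISC1-N libraries and 0.91 and 0.54 in WT libraries. There too DISC1-N was lower within both replicate numbers. Gm4710, Gm47283, Pkp1 and Cfap299 lay outside the rule for named genes and were chosen after their values were seen.

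Sgcz encodes zeta-sarcoglycan, a membrane protein of the dystrophin-associated complex (mm10 chr8:37522298-38661508, minus strand). It had 113 and 117 CPM in DISC1-N replicates 1 and 2, against 210 and 191 in WT replicates 1 and 2, and no DISC1-N library reached a WT one. The log2 fold change was -0.76 ± 0.14 (adjusted p = 0.0018, edgeR), and -0.89 ± 0.13 without vascular or ependymal nuclei (adjusted p = 0.0199, edgeR). Sgcz UMIs were present in 63 of 362 and 106 of 1172 DISC1-N members, and in 122 of 527 and 100 of 1124 WT members. The share of members with a Sgcz UMI was thus lower in DISC1-N in replicate 1 and about level in replicate 2. One nucleus held up to 67 of a library's 461 UMIs. With the stricter marker rule of a sum of 5 and 20 per 10000 UMIs the log2 fold change was -0.24 ± 0.17 and was no longer called (adjusted p = 0.807, edgeR). Leaving out nuclei above 3 times the median UMI count also ended the call, at -0.51 ± 0.16 (adjusted p = 0.133, edgeR). Gm4710 stayed called under both, at -1.80 ± 0.31 and -1.95 ± 0.29 (adjusted p = 5.6e-05 and 2.2e-07, edgeR).

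The other 2 genes that fell were Kcnip4, a calcium-binding subunit of A-type potassium channels that neurons use strongly, and Cfap299, a cilia- and flagella-associated gene. Kcnip4 had 857 and 1091 CPM in DISC1-N replicates 1 and 2, against 1359 and 1347 in WT replicates 1 and 2, with no overlap (log2 fold change -0.45 ± 0.09, adjusted p = 0.0083, edgeR). Other nuclei held 6339 to 7601 CPM of it, and their log2 fold change was -0.01. Without vascular or ependymal nuclei the Kcnip4 change was -0.36 ± 0.08 and not called (adjusted p = 0.305, edgeR). Without nuclei above 3 times the median UMI count it was -0.12 ± 0.09 (adjusted p = 0.801, edgeR). The lower pan-neuronal sum in DISC1-N members, given above, moved with it, and its part in the result was not tested. Cfap299 had 1 and 13 UMIs in DISC1-N replicates and 7 and 57 in WT replicates, 16 of the 57 in a single nucleus. The 7 UMIs of WT replicate 1 lay in 7 nuclei. Members with 2 or more ependymal UMIs, which carry cilia genes, numbered 0 and 7 in DISC1-N replicates and 2 and 14 in WT replicates. Their part in the Cfap299 counts was not tested.

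Just outside the threshold on the lower side were Glra3, a glycine receptor subunit, and Ptprd, a receptor phosphatase found at synapses. Glra3 had 1.23 and 4.21 CPM in DISC1-N replicates 1 and 2, against 17.7 and 12.04 in WT replicates 1 and 2 (log2 fold change -1.94 ± 0.45, adjusted p = 0.0503, edgeR). Ptprd had 590 and 625 CPM in DISC1-N members and 973 and 731 in WT members (log2 fold change -0.44 ± 0.10, adjusted p = 0.0527, edgeR). For both genes the DISC1-N libraries lay below the WT libraries without overlap. Both were named for their low p, and the share of all tested genes that separate in this way is not given here.

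The 3 remaining genes that rose were Pkp1, Adarb2 and Gm47283. Pkp1 (plakophilin 1, a desmosome protein) had 13 and 22 UMIs in DISC1-N replicates and 0 and 3 in WT replicates, a ratio per UMI of 12.2 (95% exact interval for counting error 3.86 to 62.2). The DISC1-N UMIs lay in 5 and 6 nuclei, 9 and 16 of them in 1 nucleus of each library. Adarb2, an RNA-editing enzyme homologue used as a marker of interneurons, had 129 and 186 CPM in DISC1-N members, against 69.8 and 126 in WT members (log2 fold change 0.69 ± 0.15, adjusted p = 0.0166, edgeR). DISC1-N was higher within each number, and single nuclei held up to 98 of a library's 486 UMIs. With the neuronal, oligodendrocyte, precursor and microglia genes of the rule required at 0, Adarb2 turned to -0.80 ± 0.20 (adjusted p = 0.0184, edgeR), so its direction rests on nuclei that hold such a UMI, which 762 members did. Gm47283, annotated as protein coding on chromosome Y, had 460 and 1004 CPM in DISC1-N members and 387 and 464 in WT members (log2 fold change 0.75 ± 0.12, adjusted p = 0.00013, edgeR). It rose in other nuclei too, by 0.83 ± 0.09 (adjusted p = 0.00093, edgeR).

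Genes of glutamate and GABA clearance showed no called change. Since 0.122% of all tested genes were called, 0 calls in a short list, here or below, do not set it apart from other genes. Of 12 tested genes of glutamate uptake and the glutamine cycle 0 were called, 5 lay above 0 and 7 below, and the median log2 fold change was -0.01. They include the rule gene Slc1a3, whose level in members depends in part on how members were chosen. Slc1a2 had 4297 and 5924 CPM in DISC1-N replicates 1 and 2, against 4365 and 6034 in WT replicates 1 and 2 (log2 fold change -0.002 ± 0.067). Its spread between replicate numbers was much wider than that between genotypes. Glul, glutamine synthetase, had 448 and 359 CPM in DISC1-N members and 335 and 337 in WT members. Both DISC1-N libraries lay above both WT libraries, with a log2 fold change of 0.26 ± 0.11 that did not pass the test (adjusted p = 0.596, edgeR). Got1, a cytosolic aspartate aminotransferase, had 88.3 and 44.8 CPM in DISC1-N members and 114 and 58.5 in WT members (-0.36 ± 0.17, adjusted p = 0.677, edgeR). None of 7 GABA uptake and breakdown genes was called; Slc6a11, the astrocyte GABA transporter GAT-3, had a log2 fold change of 0.02 ± 0.13.

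The genes that make and move D-serine and glycine, co-agonists at NMDA receptors, gave a median log2 fold change of -0.03 over 12 tested genes, with 0 called. Srr, serine racemase and a known binding partner of DISC1 protein, had 72.4 and 75.4 CPM in DISC1-N replicates 1 and 2, against 70.7 and 62.3 in WT replicates 1 and 2. DISC1-N was above WT within both numbers, by 0.21 ± 0.17 on the log2 scale (adjusted p = 0.869, edgeR). Srr was not particular in level to members, at 0.922 to 1.17 times other nuclei. Slc38a1, an amino acid transporter, had the lowest p of the list with 15.95 and 9.57 CPM in DISC1-N members against 23.6 and 19.5 in WT members (-0.84 ± 0.31, adjusted p = 0.464, edgeR). The glycine transporter Slc6a9 had a log2 fold change of -0.11 ± 0.28.

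For gap-junction coupling, potassium buffering and water, 0 of 17 tested genes were called and the median log2 fold change was 0.02. The list includes the rule gene Gja1, whose level in members depends in part on how they were chosen. The 2 astrocyte connexins, Gja1 and Gjb6, lay at -0.09 ± 0.11 and 0.02 ± 0.13. In replicate 1 both were higher in DISC1-N members (Gja1 350 against 310 CPM, Gjb6 220 against 180), and in replicate 2 both were lower (459 against 573 and 211 against 243). Aqp4 was level, at 120 and 119 CPM in DISC1-N members and 121 and 118 in WT members. The inward-rectifier potassium channel Kcnj10 was scarce, at 13.5 and 24.5 in DISC1-N members and 14.3 and 24.1 in WT members.

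Of 21 tested synapse organisers and phagocytic receptors 0 were called, with 8 above 0, 13 below and a median of -0.08. Gpc6, a glypican that astrocytes secrete to recruit AMPA receptors, had 743 and 1078 CPM in DISC1-N replicates 1 and 2, against 981 and 1279 in WT replicates 1 and 2. It was lower in DISC1-N within both numbers (-0.30 ± 0.09, adjusted p = 0.250, edgeR). Its relative Gpc5 had 5971 and 8786 in DISC1-N members and 5609 and 8104 in WT members (0.13 ± 0.06, adjusted p = 0.711, edgeR). Sparcl1 (hevin), a secreted matrix protein, had a log2 fold change of -0.08 ± 0.09.

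Calcium and receptor signalling gave 0 called of 27 tested genes and a median of -0.04. Its genes of lowest p were Gabbr2, a GABA-B receptor subunit, at -0.34 ± 0.12 (adjusted p = 0.462, edgeR), and Grm3, the metabotropic glutamate receptor of mature astrocytes, at -0.21 ± 0.09 (adjusted p = 0.596, edgeR). Grm3 had 710 and 1061 CPM in DISC1-N replicates 1 and 2 and 858 and 1222 in WT replicates 1 and 2, lower in DISC1-N within both numbers. The Notch, BMP, FGF and Wnt list leaned the other way, with 25 of 30 tested genes above 0, a median of 0.12 (0.22 in replicate 1 and 0.06 in replicate 2) and 0 called, beside 6208 of 12246 of all tested genes above 0. Id4 and Id3, BMP-induced inhibitors of differentiation, lay at 0.46 ± 0.15 and 0.39 ± 0.14 (adjusted p = 0.318 and 0.438, edgeR), and Hes5, a Notch target, at 0.25 ± 0.11. Id3 had 202 and 124 CPM in DISC1-N members and 164 and 92.6 in WT members.

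Reactive astrocyte genes were sparse, and 11 of 26 had enough UMIs to test. None was called, 9 lay above 0 and the median was 0.19, from 0.38 in replicate 1 and 0.02 in replicate 2. Gfap, the intermediate filament gene that rises in reactive astrocytes, had 36.8 and 24.9 CPM in DISC1-N replicates 1 and 2, against 28.6 and 19.9 in WT replicates 1 and 2, higher in DISC1-N within each number (0.36 ± 0.24, adjusted p = 0.833, edgeR). The libraries overlapped across numbers. The pan-astrocyte enzyme Aldh1l1 had 101 and 124 CPM in DISC1-N members and 85.8 and 98.0 in WT members (0.32 ± 0.15, adjusted p = 0.677, edgeR).

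Lipid and energy genes held no call. Cholesterol synthesis and export had 18 of 25 genes below 0 and a median of -0.13, from medians of 0.08 in replicate 1 and -0.16 in replicate 2. Apoe, the main lipid carrier made by astrocytes, had 3671 and 3316 CPM in DISC1-N members and 3567 and 4408 in WT members (-0.16 ± 0.08, adjusted p = 0.677, edgeR), level in replicate 1 and lower in DISC1-N in replicate 2. Glycolysis, lactate and glycogen genes had a median of -0.01 over 25 genes. Ldha, a lactate dehydrogenase subunit, had 71.1 and 43.2 in DISC1-N members and 87.5 and 79.7 in WT members (-0.63 ± 0.18, adjusted p = 0.179, edgeR).

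Groups linked to cell state leaned to 1 side without a single call. Of 79 nuclear-encoded oxidative phosphorylation genes 68 lay below 0 (median -0.16), of 82 cytosolic ribosomal protein genes 67 (median -0.11), and of 18 heat shock chaperones 13 (median -0.17). In replicate 1 alone the first 2 medians were 0.01 and 0.03, and in replicate 2 they were -0.31 and -0.26. The lean of those 2 lists was thus seen in replicate 2. The heat shock chaperones leaned in both, with medians of -0.14 in replicate 1 and -0.18 in replicate 2. In other kept nuclei the medians of the 3 lists in the blocked fit were -0.14, -0.12 and -0.16, in the order above. Hspa8, the constitutive chaperone HSC70, had 341 and 156 CPM in DISC1-N members and 430 and 236 in WT members (-0.45 ± 0.12, adjusted p = 0.127, edgeR). The mitochondrially encoded genes summed to 2637 and 809 CPM in DISC1-N members and 3415 and 705 in WT members, a far larger gap between replicate numbers than between genotypes. Of 13 immediate early and activity-induced genes 10 lay below 0 (median -0.29, from -0.08 in replicate 1 and -0.35 in replicate 2), among them Homer1 at -0.39 ± 0.17 (adjusted p = 0.607, edgeR).

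Hormone and clock genes leaned above 0, also without a call. Among 22 glucocorticoid receptor and glucocorticoid-induced genes 16 lay above 0, with a median of 0.16, from 0.36 in replicate 1 and 0.07 in replicate 2. Nfkbia, the NF-kappaB inhibitor induced by glucocorticoids, had 77.3 and 55.9 CPM in DISC1-N replicates 1 and 2, against 39.5 and 38.2 in WT replicates 1 and 2. No DISC1-N library overlapped a WT one (0.73 ± 0.19, adjusted p = 0.132, edgeR). Errfi1, a feedback inhibitor of the EGF receptor, had 25.8 and 21.1 in DISC1-N members and 11.8 and 11.6 in WT members (0.96 ± 0.30, adjusted p = 0.261, edgeR), and Fkbp5, a glucocorticoid receptor co-chaperone, had a log2 fold change of 0.34 ± 0.12 (adjusted p = 0.437, edgeR). Of 21 clock genes 15 lay above 0 with a median of 0.09 (0.13 in replicate 1 and 0.03 in replicate 2), led by the repressors Nr1d2 (0.43 ± 0.16), Ciart (0.71 ± 0.26) and Per2 (0.53 ± 0.20). The hour of tissue collection is not given in the sources used here.

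**Figure D4:**
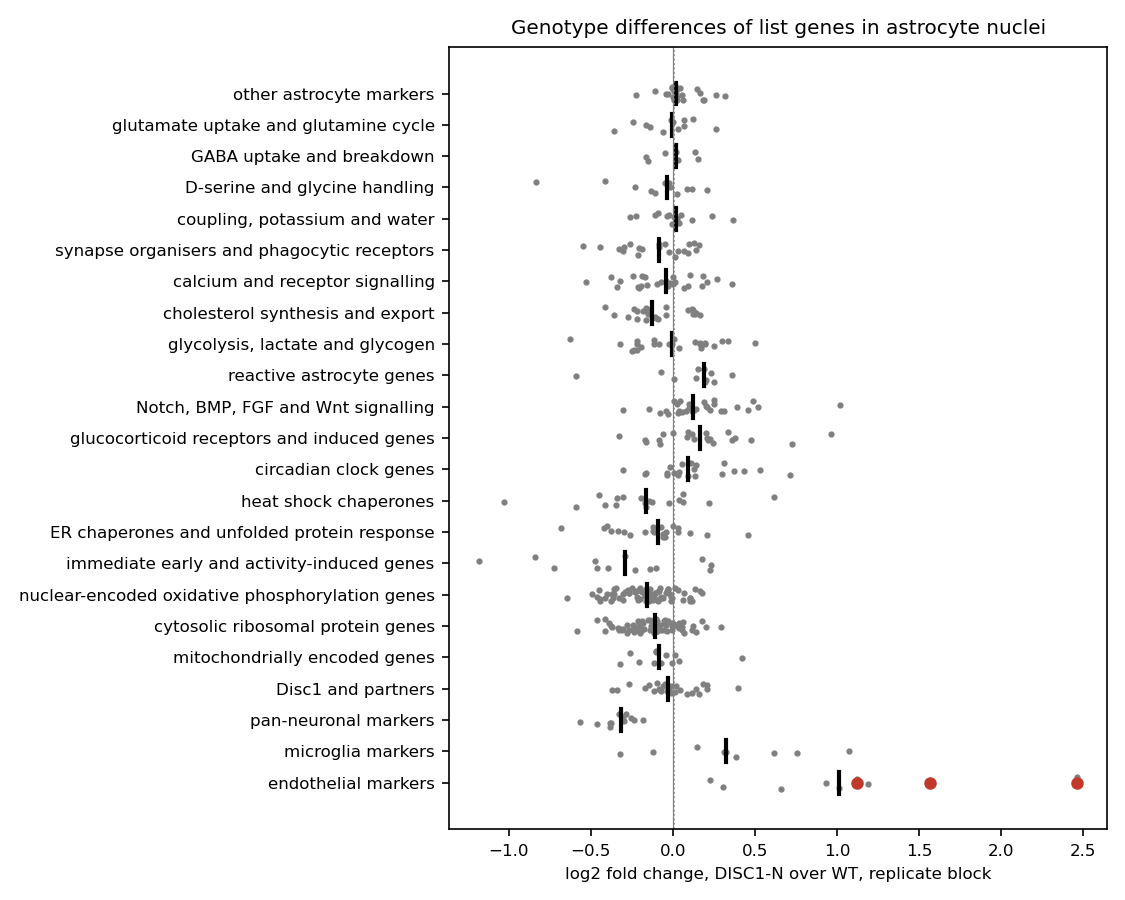
Log2 fold change (DISC1-N over WT, replicate block) of each tested gene of 23 lists in astrocyte nuclei; bars mark list medians, red points called genes and the dotted line the median of all tested genes. Called genes are in the endothelial list alone among those drawn, whose median was 1.01, and all 12 pan-neuronal markers lie below 0 with a median of -0.32.

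Disc1 itself, whose genotype defines the groups, had 25.8 and 48.6 CPM in DISC1-N members of replicates 1 and 2, against 24.4 and 34.9 in WT members. It was higher in DISC1-N within both numbers by 0.39 ± 0.22 (adjusted p = 0.766, edgeR), on 21 and 127 UMIs in DISC1-N members and 29 and 84 in WT members. Since the allele is not described, these 3' tags do not check the label. Of 28 tested genes for Disc1 and its protein partners 0 were called, and the median was -0.03. Wfs1, the endoplasmic reticulum protein gene of the series title, was scarce in members, at 29.4 and 15.7 CPM in DISC1-N and 23.6 and 16.6 in WT. Nwd1, a gene for a protein with NACHT and WD repeat domains, had 388 and 626 CPM in DISC1-N members and 416 and 593 in WT members (0.02 ± 0.10).

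Whether the genotype difference in astrocytes was unlike that in the remaining nuclei of the same libraries was tested as an interaction of class and genotype in the blocked fit. It was called for 3 of 12246 genes (0.0245%), with Ctla2a and Cldn5 higher and Cfap299 lower in members, and for 0 genes without the block (214 at an unadjusted p under 0.05). In DISC1-N replicate 1 the single nucleus described above, with mainly Slco1c1 as marker, held 41 of 49 Ctla2a UMIs and 50 of 72 Cldn5 UMIs. These 2 calls therefore describe few nuclei and not members at large. Cldn5 differed by 2.78 ± 0.39 on the log2 scale: its change was 2.46 in members and -0.33 in other nuclei. Without vascular or ependymal nuclei 1 gene was called, Sgcz, with an interaction of -0.79 ± 0.14 (adjusted p = 0.0445, edgeR). In all members the Sgcz interaction was -0.65 ± 0.16 (adjusted p = 0.608, edgeR). That of Gm4710 was -0.58 ± 0.55 (adjusted p = 0.909, edgeR), so its fall was not shown to differ from that in other nuclei. No gene of the glutamate, GABA, D-serine, coupling or synapse lists had a called interaction.

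How unevenly a gene's UMIs were spread over members differed between genes. After thinning each nucleus to 1000 UMIs, which left out 77 of 3185 members, the variance over mean of UMIs across nuclei (the Fano factor, 1 for counting noise alone) had a median of 1.03 over 6115 genes. Malat1, a nuclear noncoding RNA, ranged from 6.60 to 11.9 over the libraries. Slco1a4 ranged from 2.84 to 10.2, and was 1.00 in each library without vascular or ependymal nuclei, a value that filter fixes, since it leaves at most 1 UMI of this gene in a nucleus. Apoe had values of 2.57 to 4.68 and Cst3, the secreted protease inhibitor cystatin C, 2.68 to 4.06. The neuronal transcripts Kcnip4 (2.28 to 5.63) and Meg3 (2.10 to 4.06) were also high. Of astrocyte markers outside the rule, Slc1a2 had 1.56 to 2.02, Aqp4 1.00 to 1.07, Gjb6 0.965 to 1.13 and Glul 0.942 to 1.10.

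Gfap was rare among members. A Gfap UMI was present in 6.91 and 4.61% of DISC1-N members of replicates 1 and 2 and in 6.07 and 3.83% of WT members. After thinning to 1000 UMIs the shares were 1.69 and 2.56% in DISC1-N members and 3.09 and 2.18% in WT members, with other nuclei at 0.046 to 0.254%. Members with 2 or more Gfap UMIs numbered 5 and 10 in DISC1-N replicates and 2 and 4 in WT replicates, too few to compare with the rest. Snap25, a neuronal synaptic protein gene, was seen after thinning in 24.7 and 12.4% of DISC1-N members and 32.8 and 16.3% of WT members, against 47.6 to 56.8% of other nuclei. The Snap25 share was thus lower in DISC1-N members within both numbers.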

How the data were processed

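Raw UMI counts were deposited for every gene and barcode. Cell Ranger produced them on the mm10 build, per the file headers and the submitters' processing notes, and nothing was scaled. The headers give Cell Ranger 7.0.0 for the replicate 1 libraries and 6.0.2 for the replicate 2 libraries; the notes name 7.0.0 for all. Library kits were 10x 3' v3, per the labels' protocols. Whether intronic reads and strand were used is not given in the sources used here, so overlapping genes may share reads. The feature and barcode files deposited by the authors were used as other descriptive columns.

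Counts were summed over member nuclei per library (4 sums) and fitted in R 4.3.3 by the quasi-likelihood method of edgeR 4.0.16, after filterByExpr at a minimum count of 10 and with TMM scaling, taking replicate number as a block. Deviations from the genotype means of same-numbered libraries correlated at 0.49 over 12246 genes; the labels do not say that a number marks shared animals or a day, and the header versions are what it is known to share. CPM are counts per 1000000 of the member sum. DESeq2 1.42.0, limma 3.58.1 (voom), other filters and rules for members were alternatives. The scripts were tested on simulated data. Doublets were treated only through the rule's limits on other cells' genes.

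Named genes were the called genes of largest change in each direction (up to 12, mean at least 20 CPM, same side in both replicate numbers, without Gm, Rik, mitochondrial, ribosomal, sex-linked and rule genes), the 5 of lowest p where fewer than 5 passed in a direction, 20 genes always named and up to 4 of lowest p per described list. The members, lists and rules were chosen with earlier results of these data known. Ids were matched to GENCODE vM21 (32158 of 32285). A planned comparison of nuclei with 2 or more Gfap UMIs was dropped, as 21 had them. Some genes that the rule names are not reported here.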

Additional observations from a re-analysis of the deposited data

Results flagged for a closer look

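The genotype difference was unlike in astrocyte nuclei and in the other kept nuclei for 3 genes, by the interaction of class and genotype (edgeR, replicate block). The interaction was 3.42 on the log2 scale for Ctla2a and 2.78 for Cldn5, both higher in DISC1-N members, and -2.56 for Cfap299, lower in DISC1-N members (adjusted p = 0.0105 for each). Ctla2a had 49 and 24 UMIs in DISC1-N replicates 1 and 2 and 15 and 2 in WT replicates 1 and 2, of which members with 2 or more vascular UMIs held 49 and 23 in DISC1-N and 13 and 2 in WT. A single nucleus held 41 of the 49 in DISC1-N replicate 1. None of the 3 had enough UMIs to be tested once members with 2 or more vascular or ependymal UMIs were left out.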

How the results depend on the processing

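The count of called genes was 15 and moved by over 1.5 times in 18 of 24 alternatives. It was 0 with no replicate block (also 0 for DESeq2 and for limma-voom with no replicate block, both chosen after seeing the data), 0 for DESeq2 with the replicate block, 0 with no filter on low counts, 23 for limma-voom with the block, 38 with DESeq2 size factors, 34 at a mean of at least 20 CPM, 72 with a marker sum of 2, 73 with the exclusion genes at 0, 32 under 1% mitochondrial UMIs and 31 without deep nuclei. Without vascular, or vascular or ependymal, nuclei it was 2, and with 2 or more different markers 39, all chosen after seeing the data. Leaving out a library, which needs a fit with no replicate block, gave 0 calls when it was DISC1-N replicate 1, 22 for DISC1-N replicate 2, 9 for WT replicate 1 and 2 for WT replicate 2. Of the 580 list genes tested 5 were called, beside 15 of all 12246 tested genes (0.122%). These 5 were Cldn5, Ly6c1 and Slco1a4 of the endothelial list, Vtn of the mural and fibroblast list and Adarb2 of the inhibitory neuron list. With no replicate block 0 were called, a fit that recovered 0% of 2-fold changes in counts simulated with the blocked fit's dispersion.

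The interaction count was 3, against 0 with no replicate block, 18 with DESeq2 size factors and 1 without vascular or ependymal nuclei. The difference in share, -0.14 percentage points, turned to 0.15 under the stricter marker rule, 0.21 with exclusion genes at 0, 0.40 at 1000 genes and 0.051 with 2 different markers; leaving out a library gave -3.27 to 2.99. The mean share of members with a Gfap UMI was 2.38% thinned and 5.35% not thinned. Igfbp7 turned to -0.38 under the stricter marker rule and -0.46 without Slco1c1 in the sum, and Adarb2 to -0.80 with exclusion genes at 0. Gm4710 was called in 15 and Sgcz in 13 of 24 alternatives, lower in DISC1-N in all 24. The cause of these shifts was not tested. Members' depth limits scarce genes: 15 reactive genes could not be tested.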
